A study of Mus musculus with 4 samples.

Results

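A set of 7 transcription factor genes that hold T cells in a quiescent or memory state, Klf2, Foxo1, Foxp1, Tcf7, Lef1, Bach2 and Satb1, were examined in lung T helper 2 (Th2) cells. They were chosen by gene symbol, and all 7 were listed among the 11883 genes of the authors' deposited table. RNA came from lung cells of C57BL/6 mice exposed chronically to papain, a protease from papaya used to set off allergic inflammation in airways. Live cells carrying CD4 and T1/ST2, the interleukin-33 receptor, were sorted as Th2 cells. There were 2 genotypes with 2 samples each. Control samples were Gata3(fl/fl), in which both Gata3 alleles carry sites that Cre recombinase can cut. The others were Klrg1Cre Gata3(fl/fl), with the same floxed alleles and a Cre named for Klrg1, and are called Klrg1Cre below. All samples thus shared the floxed alleles and papain. Klrg1Cre can act only in cells that have made the Cre, and Klrg1Cre without floxed Gata3 was not analysed here, so the Cre itself, Gata3 deletion in Th2 cells and its deletion elsewhere cannot be told apart. The deposited table heads its means WT and ILC2 deficient (ILC2, group 2 innate lymphoid cells), and WT was taken as the control, a link that the labels do not state.

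These 7 factors belong to the program that keeps naive and memory lymphocytes resting, recirculating and able to renew. FOXO1, a forkhead factor that PI3K and AKT signalling drives out of the nucleus, activates genes for survival and homing, among them Klf2, Ccr7 and Il7r. KLF2, a zinc finger factor, activates S1pr1, whose product lets lymphocytes leave tissue. FOXP1, another forkhead factor, restrains activation of naive T cells. TCF-1 (Tcf7) and LEF-1 (Lef1) bind DNA through an HMG box, can recruit beta-catenin, and sustain stem-like memory cells. BACH2 represses effector genes at AP-1-like sites, and SATB1 folds chromatin in T cells, including the Th2 cytokine locus. In effector cells this program is generally low.

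Of the 7 factors, Klf2 and Foxp1 had higher deposited means in Klrg1Cre, and the other 5 had lower ones, by as little as 1.01-fold in Bach2. Means are in CPM, reads per gene scaled to a common library total. None passed the authors' adjusted p of 0.05, which 7 of 11883 genes, or 0.0589%, passed. The members' adjusted p-values lay between 0.321 and 0.963. At an unadjusted p below 0.05 there were 2 members, both with higher means and 0 with lower means. The same threshold was passed by 7.09% of all genes, 3.72% with higher and 3.37% with lower means. The median log2 ratio of the 7 was -0.03, beside 0.01 over all genes. These tests rest on 2 samples per genotype, and the labels do not say whether they were separate mice, so the spread behind each p is that between these samples and may be technical. In sorted bulk cells, fewer cells of a type and less RNA per cell cannot be told apart.

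**Figure D1:**
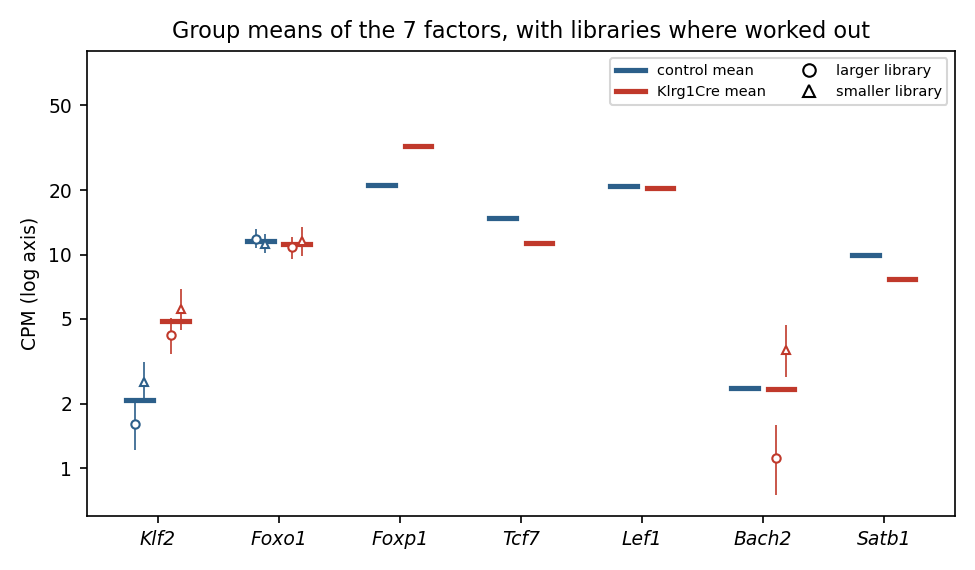
Deposited group means of the 7 factors in CPM (log axis) for control (blue bars) and Klrg1Cre (red bars), with single libraries as open symbols where they could be worked out and 95% Poisson intervals that cover counting error only. Klf2 is higher in both Klrg1Cre libraries, Foxo1 is level, and Bach2 differs between the Klrg1Cre libraries.

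Because Klf2 and Foxp1 had the smallest p-values and both had higher means, the stretch before their start sites is shown. The Klf2 stretch lies at chr8:72318812-72319011 on the plus strand of GRCm38.p6 (RefSeq), from 250 to 51 bases before the start. The capitals mark its only match to the MEF2 site, which MEF2 factors bind.
Klf2: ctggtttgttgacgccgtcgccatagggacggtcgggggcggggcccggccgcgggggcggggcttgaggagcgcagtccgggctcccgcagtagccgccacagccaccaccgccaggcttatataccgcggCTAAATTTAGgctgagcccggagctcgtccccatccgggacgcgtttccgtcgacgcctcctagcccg
A MEF2 match occurred in 183 of 32851 windows across RefSeq genes (0.557%), and among the members in Klf2 only. Each window ran from 250 bases before to 50 after a start and was thus longer than the stretch shown. This motif was searched after the sequence had been seen. The Foxp1 stretch lies at chr6:99521163-99521243 on the minus strand, from 250 to 170 bases before the most upstream of 3 RefSeq starts, and was cut where GENCODE M21 places an exon. Its capitals mark CACCC, the letters of a KLF box.
Foxp1: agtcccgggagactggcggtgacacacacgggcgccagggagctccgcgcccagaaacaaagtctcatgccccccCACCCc

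The 7 genes had 17 windows in the RefSeq table, each from 250 bases before to 50 after a start, and windows of 1 gene can overlap. On either strand, CACCC was found in 13 of the 17 windows, against 57.5% of all 32851, and Foxo1 and Bach2 had no window with it. AGATAA, the site of GATA factors, was found in 1 member window, at Lef1, against 11.2% of all. GTAAACA, a forkhead site, was found in 1, at Tcf7, against 3.65%. CTTTGA, a TCF/LEF site, was found in 3, at Bach2, Foxp1 and Lef1, against 16.0%. TGAGTCA, an AP-1 site that BACH2 can share, was found in 0, against 5.20%. These matches describe letters and not binding.

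The Klf2 mean was 4.88 CPM (Klrg1Cre) and 2.08 CPM (control), 2.35-fold higher (unadjusted p = 0.00544, adjusted p = 0.428 in the authors' deposited table). Its whole reads could be worked out in all 4 libraries from the steps of the deposited means. The larger and the smaller Klrg1Cre library held 109 and 81 reads, or 4.19 and 5.56 CPM. The larger and the smaller control library held 54 and 81 reads, or 1.62 and 2.53 CPM. Both Klrg1Cre libraries therefore lay above both control libraries. Of the 5351 genes worked out in all 4 libraries, 37.6% had groups that did not overlap, 19.3% with Klrg1Cre above. The 95% Poisson interval of the larger Klrg1Cre library, 3.44 to 5.05 CPM, did not reach that of the smaller control library, 2.01 to 3.15 CPM. With limma on log2(CPM + 1) of these libraries, Klf2 differed by 0.94 with a standard error of 0.25 (adjusted p = 0.299). Leaving out any 1 library kept its log2 ratio between 0.94 and 1.59, against 1.23 with all. Among 3643 genes with a mean within 2-fold of that of Klf2, 30 had a ratio as high (0.823%).

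Foxo1, which encodes the factor upstream of Klf2, did not follow it. Its deposited means were 11.2 CPM (Klrg1Cre) and 11.6 CPM (control), 1.04-fold lower (unadjusted p = 0.779). The Klrg1Cre libraries held 10.8 and 11.5 CPM, from 281 and 168 reads. The control libraries held 11.9 and 11.3 CPM, from 397 and 360 reads. The groups overlapped, and in limma the difference was -0.05 with a standard error of 0.17 on the log2(CPM + 1) scale. The quotient of the Klf2 mean over the Foxo1 mean was 0.437 in Klrg1Cre and 0.179 in control, given without a test.

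Foxp1 had the smallest p of the 7. In the authors' deposited table its means were 32.2 CPM (Klrg1Cre) and 21.2 CPM (control), 1.52-fold higher (unadjusted p = 0.00271, adjusted p = 0.321). Single libraries could not be worked out, because no pair of whole read numbers gave these means. If reads split in proportion to library totals, the means stand for about 1305 and 1384 reads. Counting error alone would then place the log2 ratio of 0.60 between 0.49 and 0.71, an interval that leaves out the spread between libraries. Of 2568 genes with a mean within 2-fold of that of Foxp1, 21 had a ratio as high (0.818%).

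**Figure D2:**
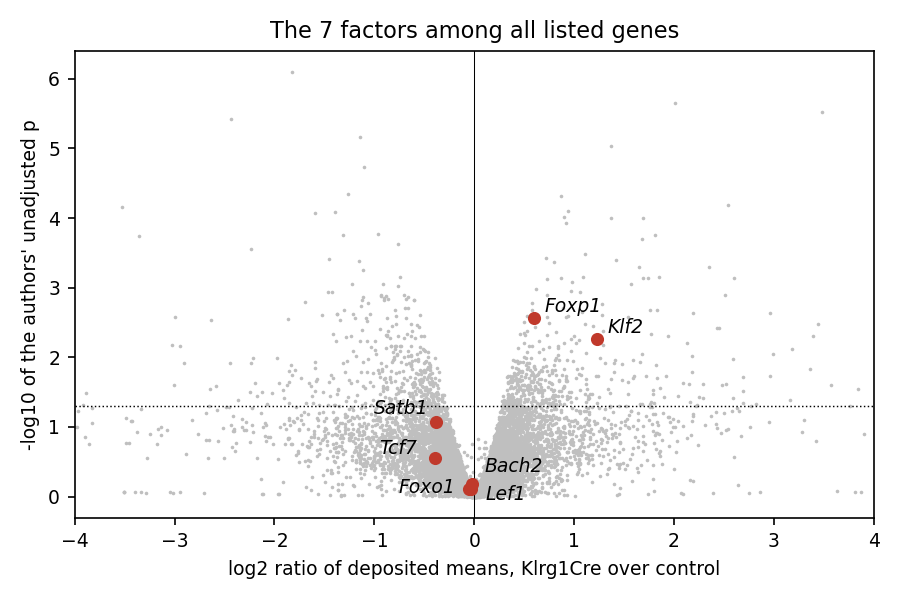
Each grey point is a listed gene, by its log2 ratio of deposited means (Klrg1Cre over control) and the -log10 of the authors' unadjusted p, and genes listed at 0 in a group or beyond the axis are not drawn. The 7 factors are red, the dotted line is an unadjusted p of 0.05, and Foxp1 and Klf2 lie above it on the right while the other 5 lie below it.

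The HMG-box genes had separate values. Tcf7 had deposited means of 11.3 CPM (Klrg1Cre) and 14.8 CPM (control), 1.31-fold lower (unadjusted p = 0.280). Counting error alone, from about 460 and 970 reads, would place its log2 ratio of -0.39 between -0.55 and -0.23. That interval excludes 0 but leaves out the spread between libraries, and the authors' test, whose model is not named, did not call the gene. Lef1 had deposited means of 20.4 and 20.9 CPM, 1.02-fold lower (unadjusted p = 0.784), with a counting interval of its log2 ratio from -0.16 to 0.09. The quotient of the Tcf7 mean over the Lef1 mean was 0.555 in Klrg1Cre and 0.711 in control, untested.

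Bach2, the repressor of effector genes, had deposited means of 2.34 CPM (Klrg1Cre) and 2.37 CPM (control), 1.01-fold lower (unadjusted p = 0.663). These level means covered unlike libraries. The larger Klrg1Cre library held 29 reads, or 1.11 CPM (95% Poisson interval 0.746 to 1.60). The smaller one held 52 reads, or 3.57 CPM (2.67 to 4.68). The smaller was thus 3.20 times the larger, a quotient above that of 99.7% of 4444 genes. These were the genes with at least 1 CPM that could be worked out in the Klrg1Cre libraries, and their median was 0.988. Set against the control mean, the log2 ratio of Bach2 was 0.59 without the larger Klrg1Cre library and -1.09 without the smaller, against -0.02 with both. Control libraries could not be worked out for this gene, so the spread in control is unknown, and the sign of its ratio depends on which Klrg1Cre library is used.

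Satb1, the chromatin organiser, had deposited means of 7.67 CPM (Klrg1Cre) and 9.96 CPM (control), 1.30-fold lower (unadjusted p = 0.0856, adjusted p = 0.735). Its reads could not be split between libraries either. Counting error alone, from about 311 and 651 reads, would place the log2 ratio of -0.38 between -0.57 and -0.18.

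Levels were compared between genes per kilobase (kb) of merged GENCODE M21 exons, which can overstate the expressed length of genes with many isoforms. In control cells the order in CPM per kb was Lef1 at 5.95, Tcf7 at 5.65, Foxp1 at 2.70, Foxo1 at 1.34, Klf2 at 1.12, Satb1 at 0.867 and Bach2 at 0.267. In Klrg1Cre cells it was Lef1 at 5.83, Tcf7 at 4.32, Foxp1 at 4.10, Klf2 at 2.64, Foxo1 at 1.29, Satb1 at 0.667 and Bach2 at 0.264. By these means Klf2 stood below Foxo1 in control and above it in Klrg1Cre, but the control order was not shared by both control libraries. In the smaller one Klf2 held 2.53 CPM over 1.847 kb and Foxo1 11.3 CPM over 8.665 kb, which places Klf2 above Foxo1 per kb. Lef1 and Tcf7 in control, and Tcf7 and Foxp1 in Klrg1Cre, were close neighbours, and no spread over libraries was known for these 3 genes.

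**Figure D3:**
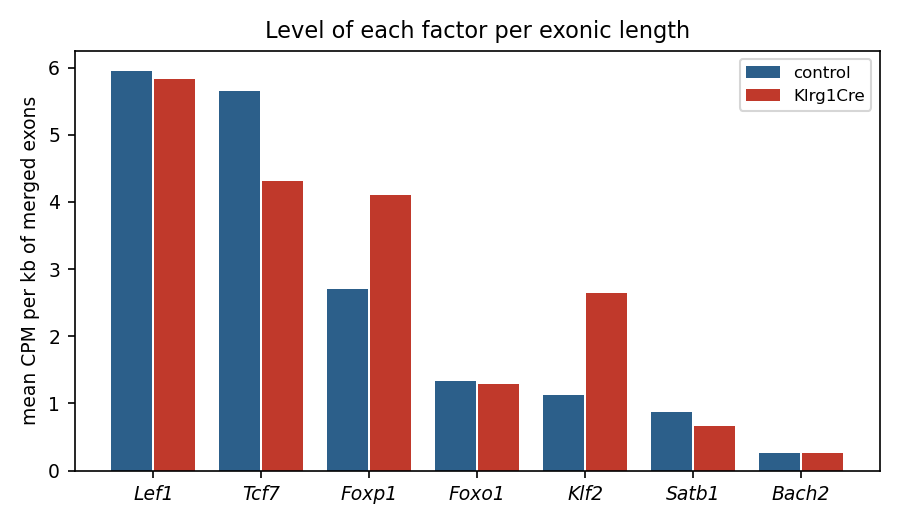
Bars give the deposited mean CPM of each factor per kb of merged exons in control (blue) and Klrg1Cre (red), ordered by the control level, without error bars because most genes could not be split into libraries. Lef1 and Tcf7 have the tallest control bars at 5.95 and 5.65, and Klf2 goes from 1.12 to 2.64.

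Over its 4 libraries, the pattern of Klf2 was nearest to those of Ckb, Fam20a and Pim2, by Euclidean distance of centred log2(CPM + 1) values. Candidates were the 2688 genes worked out in all 4 libraries with a mean of 5 CPM or more, so genes that could not be split were left out. The distances were 0.149 for Ckb, which encodes creatine kinase B, 0.255 for Fam20a and 0.266 for Pim2, which encodes a growth-promoting kinase. The Klrg1Cre libraries held 12.2 and 13.7 CPM of Ckb, against 5.21 and 6.95 CPM in the control libraries. With 4 libraries in 2 groups, many genes can share such a pattern.

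Genes tied to KLF2 were compared next, all but a cell-cycle inhibitor gene with a part in lymphocyte traffic. Of the 8 on this KLF2 trafficking list, 6 had higher and 2 lower means, with a median log2 ratio of 0.25. KLF2 activates some of these genes while Cxcr3 is known to rise on its loss, so the counts and the median have no single expected direction. Over the 5 worked out in all 4 libraries the median was 0.29, going to 0.11 without the smaller Klrg1Cre library. None of the 8 passed adjustment. At an unadjusted p below 0.05, 1 (12.5%) had a higher and 0 a lower mean, against 3.72% and 3.37% of all genes. That gene was Cxcr3, a chemokine receptor gene that is known to rise when KLF2 is lost, at 18.0 against 10.5 CPM (unadjusted p = 0.0301). S1pr1, which encodes the egress receptor that KLF2 activates, had 34.1 against 24.1 CPM (unadjusted p = 0.0616). Ccr7, the lymph node homing receptor gene, had 3.64 against 2.25 CPM.

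For S1pr1 and Cxcr3 the size of the difference came from the smaller Klrg1Cre library. S1pr1 held 25.9 and 42.4 CPM in the larger and smaller Klrg1Cre library, and 24.3 and 23.8 CPM in the control libraries. Without the smaller Klrg1Cre library its log2 ratio was 0.11, against 0.50 with both. Cxcr3 held 12.5 and 23.6 CPM in the same Klrg1Cre libraries, against control values of 11.6 and 9.35 CPM, and its log2 ratio went from 0.78 to 0.26 without that library. S1pr4, named after its values were seen, held 84.0 and 114.4 CPM there, against control values of 82.2 and 80.5 CPM, and its log2 ratio went from 0.29 to 0.05. In Klf2 itself the log2 ratio without that library was 1.01.

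**Figure D4:**
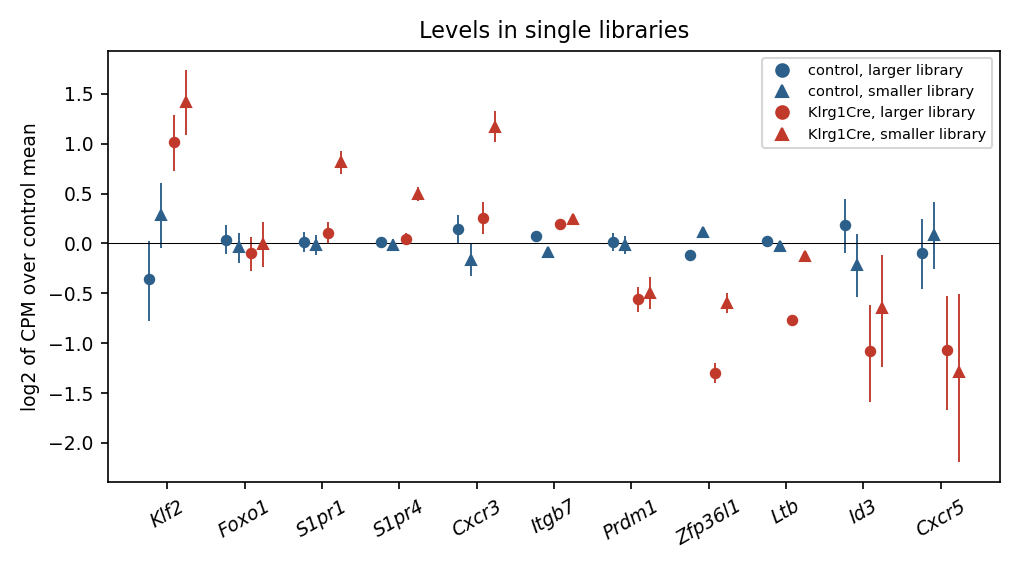
Points give log2 of the CPM in each library over the control mean for genes worked out in all 4 libraries, with 95% Poisson intervals (circles, larger library; triangles, smaller library; blue, control; red, Klrg1Cre). S1pr4 and Itgb7 were added after their values were seen. Both red points of Klf2 lie above the blue ones and both of Prdm1 below, while for S1pr1 and Cxcr3 only the red triangle stands far above.

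The wider set of 16 genes that FOXO factors activate, all listed, had 13 lower and 3 higher means and a median log2 ratio of -0.20. None passed adjustment, and 2 (12.5%) were lower and 0 higher at an unadjusted p below 0.05, against 3.37% and 3.72% of all genes. Il7r, the interleukin-7 receptor gene and a direct FOXO1 target, had 56.1 against 91.3 CPM, 1.63-fold lower (unadjusted p = 0.00126, adjusted p = 0.268). Bcl2l11, encoding the death protein BIM, was 1.72-fold lower (unadjusted p = 0.00328). Ccng2 and Bcl6 had deposited means 1.37-fold and 1.40-fold lower, with unadjusted p of 0.0515 and 0.0545. Klf2, itself a FOXO1 target, had a ratio on the other side of 1 from these 4 genes. It lay on the same side as the 3 genes with higher means, among them S1pr1 and Ccr7, which are also on the KLF2 trafficking list.

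Among 19 regulators of FOXO1, 1 gene (5.26%) had a higher and 2 (10.5%) a lower mean at an unadjusted p below 0.05. Over all genes these shares were 3.72% and 3.37%. None of the 19 passed adjustment, and the median log2 ratio was -0.08. Pik3cd, the leukocyte PI3K catalytic subunit, had 50.8 against 37.1 CPM (unadjusted p = 0.0156). Pik3ca, another catalytic subunit, had 3.26 against 5.32 CPM. Phlpp1, encoding a phosphatase that removes phosphate from AKT, had 2.34 against 4.33 CPM (unadjusted p = 0.0225), with 2.42 and 2.27 CPM in the Klrg1Cre libraries and 3.62 and 5.04 CPM in the control libraries. Akt2 had 21.0 against 25.9 CPM. These members of the pathway had values in both directions.

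Partners of TCF-1 and LEF-1 showed 0 of 16 genes at an unadjusted p below 0.05 in either direction, against 7.09% of all genes. On so few genes, 0 calls do not set these partners apart from that share. Their median log2 ratio was -0.09. Over the 3 of them worked out in all 4 libraries the median was -0.12, and it turned to 0.09 without the smaller Klrg1Cre library. The 4 smallest p-values belonged to the corepressor genes Tle2 (0.218 against 0.753 CPM) and Tle3 (24.6 against 18.9 CPM), the beta-catenin inhibitor gene Ctnnbip1 (1.38 against 0.686 CPM) and the coactivator gene Bcl9l (13.5 against 15.9 CPM).

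Genes of naive, central memory and stem-like T cells had mostly lower means. Of 20 on the list, 18 were listed and Eomes and Dapl1 were not. At an unadjusted p below 0.05, 5 (27.8%) were lower and 0 higher, against 3.37% and 3.72% of all genes in the deposited table. None of the 18 passed adjustment, and the median log2 ratio was -0.33. For the 7 of these genes worked out in all 4 libraries it was -0.44, going to -0.77 when the smaller Klrg1Cre library was left out. Besides Il7r these 5 were Cxcr5, the follicle homing receptor gene (0.965 against 2.18 CPM), the costimulatory receptor gene Cd27 (23.5 against 33.8 CPM), Ltb, encoding lymphotoxin beta (169.6 against 225.7 CPM), and Id3, an inhibitor of E proteins (1.67 against 3.01 CPM). Among the 7 genes worked out in all 4 libraries, the groups stood apart with Klrg1Cre below in 5, including Cxcr5, Id3 and Ltb. They stood apart with Klrg1Cre above in 1. Over all 5351 genes worked out this way, the shares were 18.3% below and 19.3% above. Ltb held 132.2 CPM in the larger and 206.9 CPM in the smaller Klrg1Cre library, so its log2 ratio of -0.41 became -0.13 without the larger.

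Other members of the same factor families were listed for 17 of 24 genes, with 0 past adjustment and a median of 0.21. At an unadjusted p below 0.05, 2 (11.8%) were higher and 1 (5.88%) lower, against 3.72% and 3.37% of all genes. Foxp3, the forkhead gene of regulatory T cells, had 50.6 against 104.6 CPM (unadjusted p = 0.00239), a direction opposite to that of Foxp1. Tcf7l2, a relative of Tcf7, had 3.77 against 2.02 CPM. Klf6 had 89.1 against 72.4 CPM, with 93.1 and 85.1 CPM in the Klrg1Cre libraries and 73.3 and 71.6 CPM in the control libraries. Klf16 had 4.98 against 3.25 CPM (unadjusted p = 0.0710).

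Around BACH2, 14 partners and targets were listed, with 0 past adjustment and a median of 0.21. At an unadjusted p below 0.05, 1 (7.14%) was lower and 0 higher, against 3.37% and 3.72% of all genes. The gene with the lower mean was Prdm1, encoding BLIMP-1, which BACH2 represses. Prdm1 held 21.1 and 22.0 CPM in the Klrg1Cre libraries and 31.5 and 30.8 CPM in the control libraries, a gap wider than the spread within either group (deposited means 1.44-fold lower, unadjusted p = 0.00494, adjusted p = 0.412). Nfe2l1 and Mafk, encoding leucine zipper factors, had 30.2 against 22.6 CPM and 12.9 against 9.93 CPM. Junb had 373.1 against 299.2 CPM. Of 9 chromatin partners of SATB1, 0 passed the unadjusted threshold, and Kat2b (2.08 against 3.08 CPM), Smarca5 (3.67 against 4.94 CPM), Ctbp1 (19.4 against 16.1 CPM) and Hdac1 (18.1 against 15.9 CPM) had the smallest p-values.

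Other genes tied to T cell quiescence also differed among themselves. Of 24, 23 were listed, 0 passed adjustment, and their log2 ratios had a median of -0.08. Lower means with an unadjusted p under 0.05 were seen in 4 (17.4%) and higher ones in 1 (4.35%). The matching shares of all genes were 3.37% and 3.72%. Zfp36l1, encoding an RNA-binding protein that promotes mRNA decay, had 33.6 and 54.5 CPM in the Klrg1Cre libraries and 76.0 and 89.1 CPM in the control libraries (deposited means 1.87-fold lower, unadjusted p = 0.00151, adjusted p = 0.268). Slfn1 had 24.3 against 33.7 CPM, and Pdcd4, encoding a translation inhibitor, 17.8 against 23.1 CPM. Peli1, encoding a ubiquitin ligase that restrains T cell activation, held 21.7 and 22.5 CPM in the Klrg1Cre libraries, below the control values of 28.6 and 29.3 CPM. Vsir, encoding the checkpoint protein VISTA, had the higher mean at 63.7 against 47.2 CPM (unadjusted p = 0.0171).

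**Figure D5:**
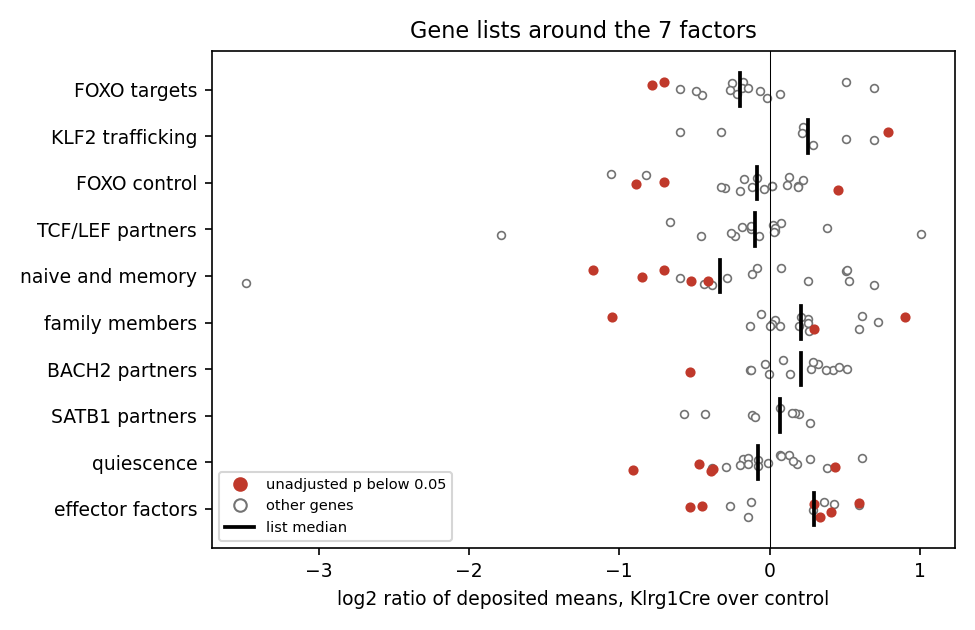
Each point is a gene of the named list by its log2 ratio of deposited means (Klrg1Cre over control), filled red at an unadjusted p below 0.05, and black bars are list medians, with genes spread vertically only for legibility; the leftmost, Igfbp4, named after its values were seen, had under 1 CPM in both groups. The naive and memory list has its median at -0.33, the KLF2 trafficking list at 0.25.

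Several measures moved with genotype beside these results, and their part in them was not tested. The Klrg1Cre library totals worked out were 26019065 and 14564426 reads, the control totals 33379572 and 31961572. Rn45s, the ribosomal RNA precursor, took 67.1% of the Klrg1Cre and 51.4% of the control mean. The other listed genes took 18.2% and 17.8%, and 14.7% and 30.8% lay outside the listed genes. Gata3 had 293.9 against 221.4 CPM, a gene-level value that does not check a floxed segment, and Klrg1 had 4.19 against 48.4 CPM. Klrg1 in the smaller Klrg1Cre library was 5.06 times that in the larger, the same order as for Bach2. T cell markers, 11 of 11 listed, summed to 1464 against 1447 CPM. Regulatory T cell markers, 10 of 10 listed, summed to 591.5 against 789.3 CPM. Of these markers, 7 (70.0%) were lower at an unadjusted p under 0.05, against 3.37% of all genes, and 0 passed adjustment. The regulatory marker Ikzf2 held 10.8 and 22.2 CPM in the larger and smaller Klrg1Cre library and 26.5 and 39.2 CPM in the control libraries. Macrophage markers, 15 of 15 listed, had 6 higher and 9 lower means and summed to 1894 against 2692 CPM. Chil3 made up that gap at 1124 against 1932 CPM, and the other 14 summed to 769.6 against 760.0 CPM. B cells and endothelial cells also use Klf2 or Bach2. Of 12 B cell markers 5 were listed, summing to 5.57 against 6.78 CPM, with Ms4a1 listed at 0 in Klrg1Cre. Cd22 made up 3.84 and 3.61 CPM of these sums, and the other 4 summed to 1.72 against 3.18 CPM. Of 12 endothelial markers 3 were listed, summing to 25.3 against 19.4 CPM, mostly Pecam1, and Cdh5, Kdr, Cldn5 and Tek were not among them.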

How the data were processed

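RNA of 4 sorted samples was sequenced. STAR, Partek and mm9 are named, per the submitters' processing notes, with versions and annotation not given in the sources used here. The deposited table holds group means in CPM with an offset of 0.0001, their ratio, a signed fold change (a score), a signal summed over libraries, p-values and step-up adjusted p-values from a model that is not named. The deposited ratio and adjusted p were recomputed from the means and p in 11883 of 11883 rows.

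A table of means holds no spread, so tests are the authors'. Library totals and whole reads were derived from the smallest increments between deposited mean CPM values (tolerance 1e-09 reads). This succeeded for 49.0% of genes (Klrg1Cre) and 47.0% (control), and for 2 of 7 members in all 4 libraries. Which labelled sample a library is remains unknown. The method and limma were tested on simulated data. As an alternative, limma 3.58.1 (R 4.3.3, trended variance) used 4242 such genes, each averaging 1 CPM or more. With 2 against 2 libraries an exact permutation test cannot go below 0.333, so none was run.

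Members and lists were chosen with earlier results of these data known. Named list genes are the 4 with the smallest p and all with an unadjusted p below 0.05, plus Ccr7, S1pr1 and Il7r, and 1 further gene that the rule names is not reported here. Reference coordinates are of GRCm38.p6, not of the authors' build, and were used only for promoter sequence and exon length. Alternatives were other pseudocounts, filters and scalings, and leaving out each library.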

Additional observations from a re-analysis of the deposited data

How the results depend on the processing

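No member passed adjustment under any alternative run: adjusting the authors' p over genes of at least 1 CPM (9806 genes, 7 members) or 5 CPM (6300 genes, 5 members), or limma (4242 genes, 2 members). limma called 7 of its 4242 genes. At an unadjusted p below 0.05, limma could test only Klf2 and Foxo1 and called 1 of these 2, Klf2, with a pseudocount of 1 or 5 CPM and without a filter, and 1 when each library was left out in turn (lowest 1, highest 1), against 2 of 7 members in the authors' test. Without a library, limma assumes that the lone sample of a group varies like the others. The log2 ratio of Klf2 was 0.48 with a pseudocount of 5 CPM. Scaling to the listed genes other than Rn45s shifted every log2 ratio by -0.03 and changed no member's sign. The median over members stayed between -0.06 and -0.02 under the pseudocounts, filters and scalings. It was not computed per left-out library, since only 2 members could be split. On genes with whole reads in all 4 libraries, an alternative chosen after seeing the data, the effector factor median was 0.09, against 0.30 over all 13. No paired analysis was possible because the deposited columns and the libraries worked out from them carry no replicate number. Klf2 rests on 54 to 109 reads per library, and Bach2 on 29 and 52 reads in the Klrg1Cre libraries, so counting error limits both. The control reads of Bach2 could not be split. The Poisson intervals of its Klrg1Cre libraries, 0.746 to 1.60 and 2.67 to 4.68 CPM, did not overlap, so these libraries differed by more than counting error.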

Other observations

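Transcription factors that favour effector differentiation, which oppose the resting program, were also compared. All 13 were listed in the authors' deposited table, 0 passed adjustment, and the median log2 ratio was 0.30. At an unadjusted p below 0.05, 4 (30.8%) had higher and 2 (15.4%) lower means in Klrg1Cre, against 3.72% and 3.37% of all genes. Those with higher means were Gata3 (293.9 against 221.4 CPM), Zeb2 (26.3 against 17.4 CPM), Id2, an inhibitor of E proteins (169.1 against 133.9 CPM), and Bhlhe40 (107.9 against 87.7 CPM). Id2 held 177.9 and 160.2 CPM in the Klrg1Cre libraries and 136.3 and 131.6 CPM in the control libraries, so the groups did not overlap. Id3, its relative on the memory list, held 1.42 and 1.92 CPM against 3.42 and 2.60 CPM, also without overlap but in the other direction. Groups without overlap were common, in 37.6% of the 5351 genes worked out in all 4 libraries, 19.3% with Klrg1Cre above and 18.3% below. The 2 effector factors with lower means at that threshold were Prdm1 and Hif1a, the oxygen-sensing factor gene (83.6 against 114.1 CPM).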
